A study of Mus musculus with 4 samples.

Results

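Eif3j1 and Eif3j2 are the mouse genes for the j subunit of eukaryotic translation initiation factor 3, and Gm3650 is a pseudogene that lies next to Eif3j2. These 3 genes, of 22084 in the deposited tables, were found by their symbol in all 3 tables and joined by gene identifier. They were chosen by their counts. Earlier results of these data had shown Eif3j2 and Gm3650 among the genes with the largest difference between the libraries WT22M and WT25F. Eif3j1 was added as the gene that encodes a near-identical protein. Their levels across libraries are therefore given as a description.

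The series asks about the role of TCF20, a nuclear protein, in neurogenesis. RNA was sequenced from telencephalic tissue of E13.5 mouse embryos, and the extraction protocol names the cerebral cortex. Libraries KO26F and KO23M are labelled TCF20-/-, WT22M is WT in its title and TCF20+/- in its genotype field, and WT25F is TCF20+/+. All 4 are of the strain B6D2F2, the second generation of a cross between 2 inbred strains, so animals need not share the same parental alleles. WT22M and WT25F, which have at least 1 intact allele under either label, are called carriers. The design text speaks of triplicates, and 4 libraries are analysed here. The sources used here do not give the deleted part of Tcf20, nor whether animals were pooled or came from separate litters, so p-values cover only the spread among these 4 samples, which may be technical.

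Each library held 17791641 to 18509743 counts in genes. Levels are given in CPM, counts per 1000000 counts of the library. Tcf20 itself, the gene targeted, stood at 98.6 CPM in KO26F and 103.8 in KO23M, against 111.1 in WT22M and 118.5 in WT25F. Both KO libraries were below both carriers, but the difference did not pass (log2 fold change -0.18, SE 0.10, edgeR adjusted p = 0.9997), so the level of this transcript does not by itself set the KO labels apart. With the deleted part unknown, counts over the whole gene do not check those labels, and KO is used below as a label.

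eIF3 is a many-subunit complex that binds the small ribosomal subunit and helps it load messenger RNA and the initiator tRNA. The j subunit is loosely attached. It binds near the decoding centre of the small subunit and helps the complex stay on it, and in yeast its counterpart Hcr1 also acts with the ATPase Rli1 (Abce1 in the mouse) when ribosomes are released at stop codons. Every growing cell needs this machinery, the dividing progenitors of the embryonic forebrain included.

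The members lie at 2 places in the genome. Positions are those of the files and are identical in the GENCODE vM21 annotation of GRCm38. Eif3j1 (ENSMUSG00000027236) spans 122028546 to 122056598 on the plus strand of chromosome 2, and its main annotated transcript has 8 exons, 5413 bases, 786 of them coding, and a 3′ UTR of 4500 bases. Its end overlaps the end of Spg11 on the minus strand by 3079 bases. Spg11 encodes spatacsin, a protein of lysosome turnover that is mutated in hereditary spastic paraplegia. Eif3j2 (ENSMUSG00000043424) spans 43475418 to 43477796 on the minus strand of chromosome 18 and has 1 exon, of 2379 bases. Gm3650 (ENSMUSG00000097891), annotated as an unprocessed pseudogene, spans 43472816 to 43475169 on the plus strand there, 248 bases from Eif3j2, with both genes ending towards each other.

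Eif3j2 and Gm3650 each match stretches of the Eif3j1 transcript almost letter for letter. The Eif3j2 transcript aligned over its whole length to bases 78 to 2446 of the Eif3j1 transcript, with 2365 of 2379 positions identical (99.4%), 4 mismatches and 10 gap positions. In the coding part there were 0 mismatches over 786 aligned bases and 6 gap positions, which is the difference between 786 and 792 coding bases. The longest identical run was 1083 bases. The spliced Gm3650 transcript of 747 bases matched the Spg11 transcript at 746 of 747 positions. Its 5 aligned segments also matched the Eif3j1 transcript on the opposite strand, at 96.1 to 100% identity, all within the 3′ UTR between bases 2695 and 5049. The Eif3j2 and Gm3650 stretches were 248 bases apart on the Eif3j1 transcript, the same distance as on chromosome 18. Together they spanned 4972 bases of that transcript and 4981 bases of chromosome 18.

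**Figure D1:**
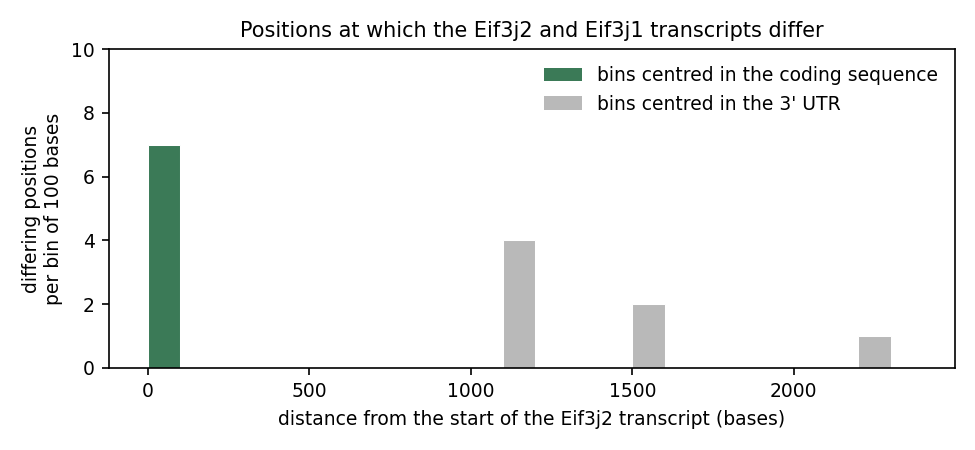
Differing positions (mismatches and gap positions) between the aligned Eif3j2 and Eif3j1 transcripts per bin of 100 bases (vertical), against the distance in bases from the start of the Eif3j2 transcript (horizontal), with bins centred in the coding sequence in green and bins centred in the 3′ UTR in grey. The 14 differences stand in 4 bins, and the other bins have 0.

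Little of Eif3j2 is unique to it. Of its windows of 50 bases, 90.8% occur letter for letter in the Eif3j1 transcript, and of its windows of 100 bases, 84.0%. Only 8.15% of the shorter and 16.0% of the longer windows occur in no transcript of another gene. Of the windows of the Gm3650 transcript, 92.8% (50 bases) and 84.6% (100 bases) occur in Spg11, and 67.2% and 35.0% in Eif3j1. In the longer Eif3j1 transcript, 39.4% and 36.0% of windows occur in Eif3j2. Read length, strand setting and the handling of multiply matching reads were not stated in the sources used here. Counts of Eif3j1, Eif3j2, Gm3650 and the overlapping Spg11 are therefore uncertain as to which gene a read came from.

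Eif3j2 was at a low level in WT25F and at a much higher one in the other 3 libraries. It had 173 counts in KO26F, 208 in KO23M and 181 in WT22M, against 15 in WT25F. In CPM, with 95% exact Poisson intervals for counting error only, this was 9.54 (8.17 to 11.1) in KO26F and 11.2 (9.76 to 12.9) in KO23M. It was 10.2 (8.75 to 11.8) in WT22M, against 0.836 (0.468 to 1.38) in WT25F. The 3 higher libraries overlapped in their intervals, in the order KO23M, WT22M, KO26F, and WT25F lay apart from all of them. The ratio to WT25F was 11.4 in KO26F (95% interval 6.73 to 20.8), 13.4 in KO23M (7.96 to 24.5) and 12.2 in WT22M (7.19 to 22.2). These 3 ratios share their denominator, which rests on 15 reads.

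Gm3650, which is not known to make a protein, had its low level in the same library. It had 60 counts in KO26F, 69 in KO23M and 69 in WT22M, against 1 in WT25F. Its level was 3.31 CPM (2.53 to 4.26) in KO26F, 3.73 (2.90 to 4.72) in KO23M and 3.88 (3.02 to 4.91) in WT22M, against 0.0557 (0.00141 to 0.310) in WT25F. As for Eif3j2, the 3 higher libraries did not differ beyond counting error, and WT25F was separate. Gm3650 lies 248 bases from Eif3j2, so these genes need not be independent observations. Whether their reads come from the same transcript was not tested. With a single read in WT25F the ratios to it are poorly fixed: 59.4 for KO26F (interval 10.3 to 2385), 66.9 for KO23M (11.6 to 2680) and 69.6 for WT22M (12.1 to 2788).

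Eif3j1 went the other way. It had 564 counts in KO26F, 540 in KO23M and 483 in WT22M, against 753 in WT25F. In CPM this was 31.1 (28.6 to 33.8) in KO26F, 29.2 (26.8 to 31.7) in KO23M and 27.1 (24.8 to 29.7) in WT22M, against 42.0 (39.0 to 45.1) in WT25F. The interval of WT25F did not overlap those of the other libraries, and the intervals of KO26F, KO23M and WT22M overlapped each other. KO26F was nevertheless above WT22M beyond counting error, with a ratio of 1.15 (1.01 to 1.30), while the ratio of KO23M to WT22M was 1.07 (0.949 to 1.22). The ratio to WT25F was 0.741 in KO26F (0.664 to 0.828), 0.695 in KO23M (0.621 to 0.778) and 0.647 in WT22M (0.576 to 0.726).

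**Figure D2:**
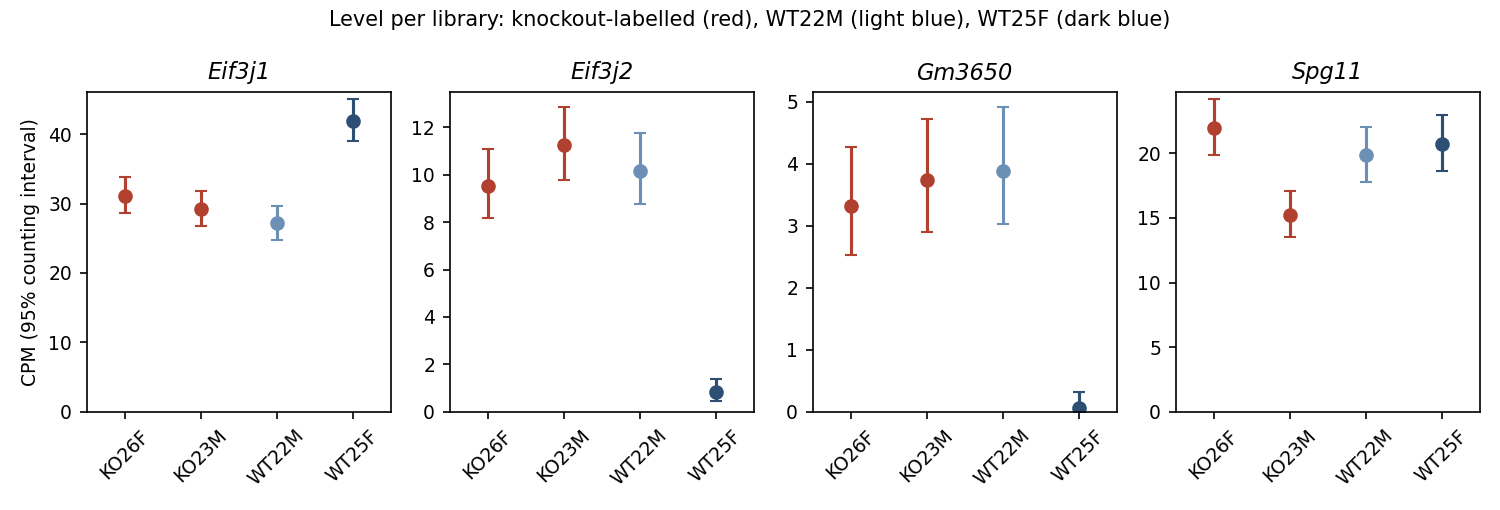
Level in CPM (vertical, each axis from 0) of Eif3j1, Eif3j2, Gm3650 and Spg11 in each library (horizontal), with 95% exact Poisson intervals as bars. WT25F is low in Eif3j2 (0.836 CPM) and Gm3650 (0.0557 CPM) and high in Eif3j1 (42.0 CPM), while its Spg11 level of 20.7 CPM lies within the range of the other 3 libraries.

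Spg11, with which Gm3650 shares its letters, did not set WT25F apart. It stood at 22.0 CPM in KO26F (19.9 to 24.2), 15.2 in KO23M (13.51 to 17.1) and 19.8 in WT22M (17.8 to 22.0), against 20.7 in WT25F (18.7 to 22.9). KO23M was the low library here. Spg11 did not pass in KO against carriers (log2 fold change -0.13, SE 0.16, edgeR adjusted p = 0.9997).

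Per kilobase of exon, Eif3j2 and Gm3650 stood at like levels in the libraries that had them. Eif3j2 reached 4.01 CPM per kb in KO26F, 4.72 in KO23M and 4.28 in WT22M, against 0.351 in WT25F. Gm3650 reached 4.43 CPM per kb in KO26F, 4.99 in KO23M and 5.19 in WT22M, against 0.0746 in WT25F. Eif3j1 was at 5.34 CPM per kb in KO26F, 5.004 in KO23M and 4.66 in WT22M, against 7.20 in WT25F. Lengths were 2.379 kb for Eif3j2, 0.747 kb for Gm3650 and 5.83 kb for Eif3j1, the exons of all its annotated transcripts joined.

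Of the reads counted for either j subunit gene, the share counted for Eif3j2 was 23.5% in KO26F (95% exact binomial interval 20.5 to 26.7), 27.8% in KO23M (24.6 to 31.2) and 27.3% in WT22M (23.9 to 30.8), against 1.95% in WT25F (1.10 to 3.20). The sum of both genes was nearly level. It came to 737 counts or 40.7 CPM in KO26F (37.8 to 43.7), 748 or 40.4 in KO23M (37.6 to 43.4) and 664 or 37.3 in WT22M (34.5 to 40.3), against 768 or 42.8 in WT25F (39.8 to 45.9). The highest library of the sum was 1.15 times the lowest, against 1.55 times for Eif3j1 alone and 13.4 times for Eif3j2 alone. The sum of WT22M to WT25F was 0.872 (0.785 to 0.969), so these carriers differed beyond counting error, while the intervals of the sum in KO26F and KO23M overlapped those of both carriers.

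In CPM, Eif3j1 in WT25F exceeded KO26F by 10.8, KO23M by 12.8 and WT22M by 14.8. Eif3j2 exceeded its WT25F level by 8.71 CPM in KO26F, 10.4 in KO23M and 9.34 in WT22M. Whether reads were assigned differently between these near-identical genes in different libraries was not tested.

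**Figure D3:**
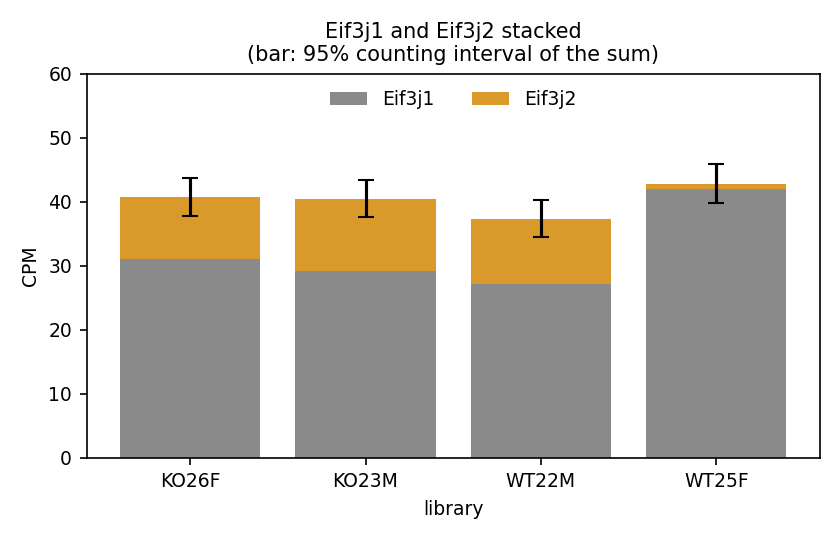
Eif3j1 (grey) and Eif3j2 (orange) in CPM stacked per library (vertical, from 0), with the 95% exact Poisson interval of the sum. The stacks reach 40.7 CPM in KO26F, 40.4 in KO23M, 37.3 in WT22M and 42.8 in WT25F, with hardly any orange in WT25F.

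The comparison of the knockout-labelled libraries with the carriers asks whether the loss of TCF20 goes with a change in these genes. The sum averaged 40.5 ± 0.174 CPM in KO and 40.1 ± 3.87 CPM in carriers (SD, n = 2 each), a log2 difference of 0.02. An exact two-sided permutation test over the libraries gave p = 1 (n = 2 each), and this design cannot go below p = 0.333. Eif3j2 averaged 10.4 ± 1.20 CPM in KO and 5.50 ± 6.60 CPM in carriers (SD, n = 2 each), since the carriers hold both its low library and a high one. Its log2 fold change was 0.91 (SE 1.39, edgeR adjusted p = 0.9997). Gm3650 averaged 3.52 ± 0.295 CPM in KO and 1.97 ± 2.70 CPM in carriers (log2 fold change 0.83, SE 1.69, edgeR adjusted p = 0.9997). Eif3j1 averaged 30.1 ± 1.37 CPM in KO and 34.6 ± 10.5 CPM in carriers (log2 fold change -0.20, SE 0.17, edgeR adjusted p = 0.9997). In this fit 0.0615% of the 16252 genes tested passed in either direction, and 0 of 3 members did. Eif3j2 and Gm3650 were chosen for a difference between the 2 carriers, which enters this comparison as spread, so nothing is read from their count here.

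These values turned on which carrier was used. Without WT22M, so that KO stands against WT25F alone, the log2 fold change was 3.64 for Eif3j2 and 5.83 for Gm3650, and both passed, as 0.351% of all genes did, while Eif3j1 stood at -0.47 and did not. Without WT25F, so that KO stands against WT22M alone, it was 0.01 for Eif3j2, -0.16 for Gm3650 and 0.13 for Eif3j1, and 0 of 3 passed, where 0.591% of all genes did. In both fits a single carrier is taken to vary as the KO pair does. The first of these contrasts uses the low library by which the members were chosen, so its calls are a description.

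The authors' deposited tables, each of which sets a library against WT25F, mark Eif3j2 and Gm3650 as higher in all 3. A gene has this mark where its adjusted p is under 0.05 and its log2 fold change is 1 or more in size. It was given to 1.96% of genes in the KO26F table, 2.9% in the KO23M table and 3.62% in the WT22M table. In the authors' deposited tables the log2 fold change of Eif3j2 was 3.51 for KO26F, 3.75 for KO23M and 3.61 for WT22M. That of Eif3j1 was -0.43, -0.52 and -0.63 in the same order, and it carried no mark in any authors' deposited table. Only the limit on the size of the log2 fold change kept Eif3j1 from the mark. All 3 tables share WT25F.

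WT25F stood apart in other genes too. Such genes were counted for WT25F only, so whether it has more of them than another library was not tested. With 0.5 CPM added to each level, 12 of 16252 genes were at least 2-fold lower in WT25F than in each other library, and 11 were at least 2-fold higher. At 4-fold there were 8 lower genes, Eif3j2 and Gm3650 among them, and 1 higher gene. The other 6 lower genes, named after their values were seen, were Rpl3-ps1 and Rpl3-ps2, pseudogenes of a ribosomal protein, Hist1h4i, a histone H4 gene, and Gm13092, Gm43305 and Gm9855. Marker genes of other tissue differed in the same library. The 4 diencephalon markers (Gbx2, Tcf7l2, Olig3, Irx1) summed to 14.1 CPM in KO26F, 14.1 in KO23M and 11.6 in WT22M, against 59.3 in WT25F. The 4 erythroid genes summed to 665, 623 and 527 CPM in KO26F, KO23M and WT22M, against 948 in WT25F. Of these 4, only Hba-a1, an alpha globin, was highest in WT25F, with 559 CPM in KO26F, 506 in KO23M and 485 in WT22M, against 866 in WT25F. Hbb-y, Hba-x and Hbb-bh1 had values in WT25F within the range of the other libraries. Choroid plexus markers (4 genes) were low in another library, with 975 CPM in KO26F, 759 in KO23M and 189 in WT22M, against 918 in WT25F. The 4 mesenchyme markers summed to 282 to 364 CPM and the 4 microglia markers to 38.2 to 46.6 CPM, and 0 of all these markers were at 0 in any library. All 10 telencephalon markers were present in every library, with sums from 2194 CPM in WT25F to 2535 in KO26F. The part of these differences in the members' levels was not tested. Fewer cells of a type and less RNA per cell cannot be told apart in such bulk samples.

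The genes whose profile over the 4 libraries was most like that of Eif3j2 began with Gm3650. Likeness was the root mean square difference between log2(CPM + 0.5) profiles, each centred on its mean, over the 16252 genes tested. Gm3650 was the nearest gene to Eif3j2 and Eif3j2 the nearest to Gm3650, with a difference of 0.08 on the log2 scale. Rpl3-ps2 (0.25) and Gm43305 (0.30), a transcript on chromosome 14, came next to Eif3j2. They had 114 and 135 counts in KO26F, 138 and 115 in KO23M and 82 and 185 in WT22M, against 9 and 10 in WT25F. Gm43305 (0.23) and Rpl3-ps2 (0.28) also came next to Gm3650. All these profiles have their low value in WT25F. Eif3j2 and Gm3650 were both chosen for their large difference between WT22M and WT25F. Their nearness to each other therefore follows in part from the choice and is a description.

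For Eif3j1 the nearest profiles were CT025710.1 (0.01), 9130019O22Rik (0.02) and Efcab1 (0.02), on chromosomes 12, 7 and 16. CT025710.1, for example, had 15, 14 and 12 counts in KO26F, KO23M and WT22M, against 23 in WT25F. These names changed with the amount added before the logarithm: 1 of 3 was also among the nearest with 0.1 CPM added, and 0 of 3 with 2 CPM. Among the 16252 genes Eif3j2 stood at rank 16226 and Gm3650 at rank 16224 in likeness to Eif3j1.

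The other subunits of eIF3 were near level across libraries. All 12 listed subunits, Eif3a to Eif3i and Eif3k to Eif3m, were measured, at 65.7 to 548 CPM. Between the highest and the lowest library they differed by 1.06-fold (Eif3b) to 1.17-fold (Eif3d), against 13.4-fold for Eif3j2. Eif3j2 was chosen for its large difference between libraries, and its lowest level rests on 15 counts. Its range is therefore set beside theirs as a description only. Between KO and carriers 0 of 12 passed (edgeR, 0 at an unadjusted p under 0.05, 0 with DESeq2), beside 0.0615% of all genes. Their log2 fold changes ran from -0.09 (Eif3k) to 0.02 (Eif3b), with a median of -0.03, against 0.00 over all genes tested.

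Eif3k, Eif3g and Eif3l had the smallest p of these subunits. Eif3k, a peripheral subunit, stood at 150 CPM in KO26F and 173 in KO23M, against 175 in WT22M and 169 in WT25F. Eif3g, an RNA-binding subunit, stood at 130 CPM in KO26F and 144 in KO23M, against 151 in WT22M and 140 in WT25F. Eif3l, which pairs with Eif3k, was at 188 and 204 CPM, against 211 and 202 CPM in the same order. KO and carriers overlapped for Eif3k, Eif3g and Eif3l alike. For WT22M against WT25F, in a fit whose spread is that of the 2 KO libraries, 0 of 12 passed (edgeR, 0 at an unadjusted p under 0.05, 0 with DESeq2), beside 0.714% of all genes. The median log2 fold change there was 0.09, against 0.00 over all genes, with a range of -0.17 (Eif3a) to 0.26 (Eif3d).

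Of the wider machinery of initiation and recycling, 19 of 20 factors differed by at most 1.23-fold between the highest and the lowest library. The exception was Eif2s3x, an X-linked gene for a subunit of eIF2, which carries the initiator tRNA. It stood at 103.1 CPM in KO26F and 50.8 in KO23M, against 55.4 in WT22M and 92.5 in WT25F, a 2.03-fold range. Its high libraries were both titled F and its low ones both titled M, and KO and carriers overlapped. Of the 20 such factors, 0 passed between KO and carriers (edgeR, 0 at an unadjusted p under 0.05, 0 with DESeq2). The share over all genes was 0.0615%. The median log2 fold change of the factors was 0.03. Eif1ad, which resembles the start-codon factor eIF1A, had the smallest p, with 60.9 and 62.8 CPM in KO26F and KO23M, against 71.7 and 68.2 in WT22M and WT25F (log2 fold change -0.18, SE 0.11). KO and carriers did not overlap here. Abce1, the recycling ATPase, was at 107 and 95.8 CPM in KO26F and KO23M, against 88.5 and 94.1 in WT22M and WT25F (log2 fold change 0.15, SE 0.10), again without overlap. Eif4e, which binds the cap of messenger RNA, was at 144 and 124 CPM, against 119 and 125 CPM in the same order (log2 fold change 0.13, SE 0.10), where KO and carriers overlapped. Eif1ad, Abce1 and Eif4e were named for the smallest p of the 20, and each had edgeR adjusted p = 0.9997. With n = 2 each, an exact permutation test cannot go below p = 0.333 even where arms do not overlap. No difference is therefore read from the lack of overlap. For WT22M against WT25F the median of the 20 factors was -0.03, with the lowest value at -0.71 (Eif2s3x, on the X chromosome).

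**Figure D4:**
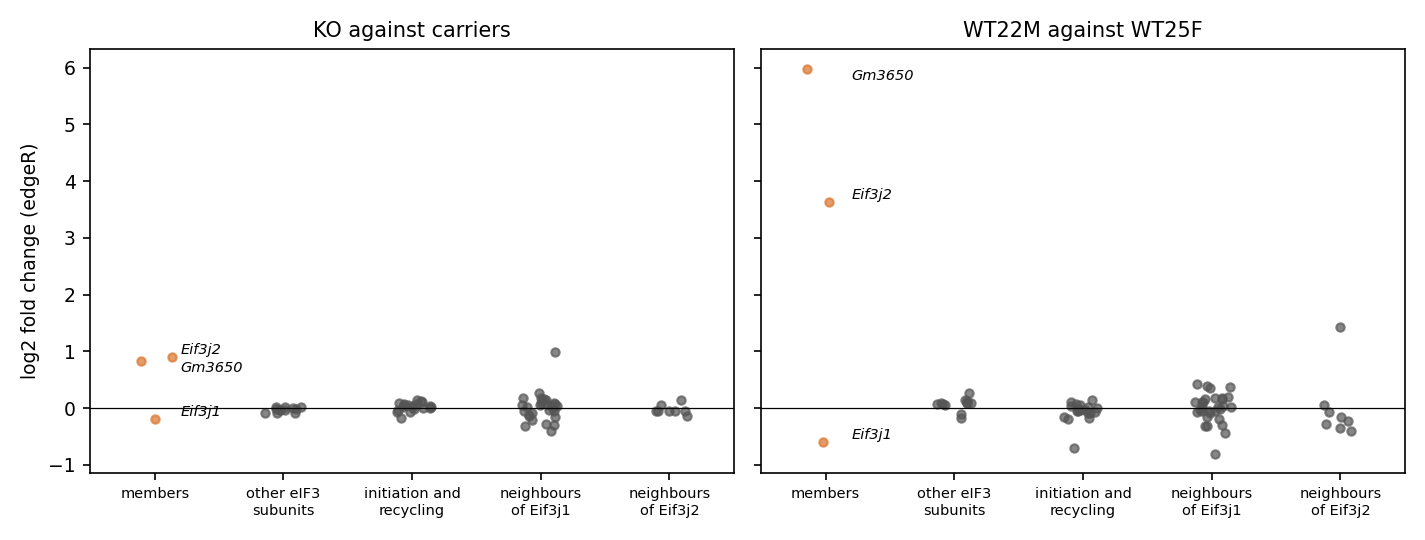
Log2 fold change from edgeR (vertical) of each gene in KO against carriers (left) and WT22M against WT25F (right), for the 3 members (orange), the 12 other eIF3 subunits, 20 initiation and recycling factors and the tested neighbours of Eif3j1 and Eif3j2 (grey). In the right panel Gm3650 (5.98) and Eif3j2 (3.63) lie far above every other gene shown and Eif3j1 (-0.60) lies below 0, while the other subunits stay between -0.17 and 0.26. Gm3650 and Eif3j2 were chosen on the contrast of the right panel, so their place in it is a description.

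Of 9 further genes in the files that start within 1 Mb of Eif3j2 or Gm3650 on chromosome 18, 8 were tested. Between KO and carriers 0 of 8 passed (edgeR, 0 at an unadjusted p under 0.05, 0 with DESeq2), beside 0.0615% of all genes. Their log2 fold changes ran from -0.14 (Dpysl3) to 0.14 (Stk32a). For WT22M against WT25F the range was -0.40 (Mcc) to 1.42 (Gpr151, with 21 counts in WT22M against 8 in WT25F). The nearest measured gene on either side was Dpysl3, which acts in the outgrowth of axons, and Jakmip2, a coiled-coil protein of neurons. Dpysl3 stood at 1860 CPM in KO26F, 1592 in KO23M and 1837 in WT22M, against 1965 in WT25F. Jakmip2 stood at 44.1, 32.7 and 35.3 CPM in KO26F, KO23M and WT22M, against 44.0 in WT25F. Neither gene had its lowest value in WT25F.

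Around Eif3j1 on chromosome 2, 30 of 40 neighbours within 1 Mb were tested. Between KO and carriers 0 of 30 passed (edgeR, 1 at an unadjusted p under 0.05, 0 with DESeq2), beside 0.0615% of all genes. Of all 16252 genes tested, 464 had an unadjusted p under 0.05 in this edgeR fit. The median log2 fold change of the neighbours was 0.04, and for WT22M against WT25F it was 0.01. The nearest gene upstream, Ctdspl2, a phosphatase gene, had 350 counts in KO26F, 307 in KO23M and 300 in WT22M, against 323 in WT25F, so WT25F was in the middle. Spg11, the nearest on the other side, is described above. The tested neighbour with the lowest log2 fold change for WT22M against WT25F was Mfap1b, a splicing factor gene. Mfap1b was named after its values were seen. It has a close relative, Mfap1a, nearby, and whether its reads are uncertain too was not tested. Mfap1b had 228 counts in KO26F, 240 in KO23M and 216 in WT22M, against 388 in WT25F, the same direction as Eif3j1 (log2 fold change -0.80 for WT22M against WT25F, edgeR adjusted p = 0.107). Mfap1a had 438, 438 and 415 counts in KO26F, KO23M and WT22M, against 434 in WT25F. The small p between KO and carriers was that of B2m, the light chain of class I histocompatibility molecules (log2 fold change -0.31).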

How the data were processed

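Telencephalic RNA of 4 libraries was analysed, 2 knockout-labelled and 2 carriers. Per the submitters' processing notes, Bowtie2 2.2.3, TopHat2 2.0.12, HTSeq 0.6.0 and the build mm9 were used, while gene positions in the files match GRCm38 for 91.8% of the 22039 identifiers found in GENCODE vM21. The authors deposited 3 tables with whole-number read counts per gene, which are not normalized. The authors also deposited CPM values (counts scaled to the library total, a count of 0 written as 0.5), their ratio as a fold change, its log2, and p-values with adjusted p-values whose test the sources used here do not state.

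The tables were joined by identifier with 0 counts for a library whose tables lack the gene. At these depths 0 counts allow up to 0.169 CPM (3 counts). The 16252 genes that passed filterByExpr on the 2 arms went through edgeR 4.0.16 (quasi-likelihood, TMM, robust, Benjamini-Hochberg threshold 0.05), in a fit of KO against carriers and in a fit of the 3 genotype labels for WT22M against WT25F, where each single library is taken to vary as the KO libraries do. The scripts were tested on simulated data. Transcripts of GENCODE vM21 were aligned with blastn 2.17.0. Alternatives were RLE size factors, DESeq2 1.42.0, other filters, the title letter as a block, other pseudocounts and windows, and each library left out. Members and gene lists were chosen with earlier results of these data known. Named genes were the members, the 3 smallest p of each list, the nearest and any called neighbours, and the 3 most alike profiles. R 4.3.3 and Python 3.11.15 were used.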

Additional observations from a re-analysis of the deposited data

Results flagged for a closer look

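For 3 quantities the KO library lay on opposite sides of its carrier in the pair titled F (KO26F, WT25F) and the pair titled M (KO23M, WT22M). For Eif3j1 the log2 ratio was -0.43 for KO26F to WT25F and 0.10 for KO23M to WT22M (95% counting interval of the second -0.076 to 0.28). For Gm3650 it was 5.89 for KO26F to WT25F and -0.057 for KO23M to WT22M, which rests on 69 counts in each (-0.56 to 0.45). For the sum of Eif3j1 and Eif3j2 it was -0.074 for KO26F to WT25F and 0.11 for KO23M to WT22M (-0.038 to 0.27). So all 3 ratios of KO23M to WT22M have intervals that include 0, and their signs are not fixed beyond counting error. For KO26F to WT25F the interval was -0.59 to -0.27 for Eif3j1, 3.36 to 11.2 for Gm3650 and -0.22 to 0.074 for the sum. The intervals of both pairs overlapped for the sum, but not for Eif3j1 or Gm3650. None of these 3 differences was tested, because a pair holds a single KO library and a single carrier. The pairs also use different carriers, and Eif3j2 and Gm3650 were chosen for the difference between those carriers. Between the KO libraries, the log2 ratio of KO26F to KO23M was 0.09 for Eif3j1 (-0.080 to 0.27) and -0.17 for Gm3650 (-0.70 to 0.35). For Eif3j2 both ratios were positive, 3.51 for KO26F to WT25F and 0.14 for KO23M to WT22M, with the 95% counting interval of the second from -0.15 to 0.44.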

How the results depend on the processing

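Between KO and carriers 10 genes passed. RLE size factors, DESeq2 and both other filters kept the count between 9 and 11. With the title letter as a replicate block it was 123, and 42 to 110 with a library left out. Same-letter libraries had a correlation of 0.23 between their deviations from the arm means over 16252 genes. With 2 libraries in an arm their deviations mirror each other, so both same-letter pairs give this 1 value. Nothing in the labels ties the letters to a litter or day. The block changed no call of a member or of an eIF3 subunit. With a library left out, the log2 fold change ranged from -0.47 to 0.13 for Eif3j1 (reversed without WT25F, 0.13), from 0.0090 to 3.64 for Eif3j2 and from -0.16 to 5.83 for Gm3650 (reversed without WT25F, -0.16). The values of 3.64 and 5.83 are those without WT22M. The sum of Eif3j1 and Eif3j2 ranged from -0.078 without WT22M, where it was reversed, to 0.12 without WT25F. The median of the eIF3 subunits ranged from -0.10 without KO23M to 0.018. Why these values moved was not tested. For WT22M against WT25F, 116 genes passed, against 33 with DESeq2 and 0 without a filter on low counts. With the filter, 793 genes had an unadjusted p under 0.05 in edgeR. The cause was not tested. As a description, since the members were chosen on this contrast, the log2 fold change over these settings was 3.62 to 3.64 for Eif3j2. It was 5.98 to 6.15 for Gm3650. Their SE was less steady, from 0.32 without the filter to 0.62 with DESeq2 for Eif3j2, and from 0.56 to 1.65 for Gm3650. Of the 3 most alike genes, other pseudocounts shared 0 to 1 for Eif3j1, 2 for Eif3j2 and 0 to 2 for Gm3650. Depth limits Gm3650 most, with 1 read in WT25F.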
